A study of Mus musculus with 4 samples.

Results

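The 43 genes described here carry out or time DNA replication in S phase: they mark and license origins, unwind and copy the DNA, supply its building blocks and rebuild chromatin behind the fork. They were taken by symbol from the 21959 genes listed in each of the 2 deposited tables, and a gene entered when any of the 4 libraries held at least 20 counts. All 43 met this, the least counted being Fen1 with 23 counts in its highest library and Orc1 with 131. RNA came from mouse tumours of MC38, a colon carcinoma line, 72 h after the second treatment. The 4 groups were dendritic cells (DCs) from tumours treated with X-Ray+O-IMDQ, DCs from tumours given PBS, CD3+ T cells from tumours treated with X-Ray+O-IMDQ and CD3+ T cells from tumours given PBS. The titles give the treatment as X-Ray+O-IMDQ, X-rays together with the compound O-IMDQ, and the series describes a prodrug activated by radiotherapy. Libraries with X-Ray+O-IMDQ are called treated, and all groups share the MC38 tumour. Each group had 1 library, so there was no replicate check: every ratio compares 2 libraries and not the conditions, and no p-value is given.

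Before S phase the origin recognition complex, Cdc6 and Cdt1 load the Mcm2 to Mcm7 ring on DNA, and Cdc45 and the GINS complex then turn it into the active helicase. Polymerase alpha-primase starts each strand, the clamp loader RFC places the Pcna clamp, and polymerases delta and epsilon extend the DNA. E2F transcription factors switch many of these genes on when cells leave G1, so the set is widely read as a sign of cycling cells, such as T cells expanding in a tumour. In bulk RNA, fewer cycling cells and less RNA per cell cannot be told apart.

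Total counts were 14056428 in treated DCs, 23797357 in PBS DCs, 18463944 in treated T cells and 18649824 in PBS T cells. In that order, the limit that a count of 0 allows (3 counts) was 0.213, 0.126, 0.162 and 0.161 CPM, which are counts scaled to library total. The 10 listed T cell markers summed to 95.7 CPM in treated DCs and 114 CPM in PBS DCs, against 16113 CPM in treated T cells and 14784 CPM in PBS T cells. Of these markers 6 were at 0 in treated DCs and 3 in PBS DCs, Cd3e, Cd247 and Cd4 in both. Lck, Cd2 and Cd3g had 0, 0 and 1 counts in treated DCs and 607, 574 and 576 in PBS DCs, while Cd3d and Cd5 had 812 and 278 in treated DCs and 434 and 1 in PBS DCs. Of 11 DC markers 4 were higher, 3 lower and 4 neither in treated DCs. The DC genes Flt3 and Zbtb46 had 69 and 57 counts with treatment and 16 and 9 with PBS, while Batf3, Cd209a and Ccr7 had 0, 329 and 1382 with treatment and 479, 9441 and 8296 with PBS. The 11 DC markers summed to 602 CPM in treated DCs and 1049.5 CPM in PBS DCs. In treated and PBS T cells they summed to 1514.6 and 952 CPM, so this sum did not separate the cell types. Ccr7 held 26421 of the 27965 DC marker counts in treated T cells and 16698 of 17763 in PBS T cells. The 9 macrophage markers summed to 1762 CPM in treated DCs and 7744 CPM in PBS DCs. The keratin genes of epithelial cells, Krt8, Krt18, Krt19 and Krt20, were at 0 in both DC libraries, Epcam had 0 counts in treated DCs and 219 in PBS DCs, and Cdh1 had 776 in treated DCs and 662 in PBS DCs, 2.08-fold higher. The PBS columns were taken by the read file number in the sample descriptions, which is 1, whereas the titles number both PBS samples 2. Each table holds a further library of the same letter code, numbered 2, that was not used here, so which column is the labelled PBS library is in doubt, and with it every value given for PBS.

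E2F motifs near the start are a known feature of replication genes, and 6 promoters are shown to set genes of different behaviour side by side. RefSeq promoter windows (GRCm38.p6, 250 bases before to 50 bases after the start) were matched by symbol for 35 of the 43 genes, with 41 windows. The words TTTCCCGC, TTTGGCGC, TTTCGCGC and TTTGCCGC were searched on both strands, and matches, which may overlap, are in capitals. Such a word was found in 14 of 41 windows (34.1%), against 744 of 32851 windows of all genes (2.26%), 12 of 52 windows of other replication factors (23.1%) and 1 of 18 windows of the G2/M marker genes (5.56%). Of the 21 matches, 12 lay within 100 bases of the start. The word CCAAT, on either strand, was in 25 of the 41 windows (61.0%), against 37.4% of all windows and 88.9% of the G2/M windows. A match describes the letters only and does not show binding.
Mcm5 promoter, chr8:75109259-75109558, plus strand: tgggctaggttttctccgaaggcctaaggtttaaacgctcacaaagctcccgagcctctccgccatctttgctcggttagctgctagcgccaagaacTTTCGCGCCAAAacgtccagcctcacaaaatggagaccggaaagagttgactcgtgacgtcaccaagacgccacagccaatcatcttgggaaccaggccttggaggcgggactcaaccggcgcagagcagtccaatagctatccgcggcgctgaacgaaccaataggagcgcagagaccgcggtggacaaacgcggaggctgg
Mcm6 promoter, chr1:128359656-128359955, minus strand: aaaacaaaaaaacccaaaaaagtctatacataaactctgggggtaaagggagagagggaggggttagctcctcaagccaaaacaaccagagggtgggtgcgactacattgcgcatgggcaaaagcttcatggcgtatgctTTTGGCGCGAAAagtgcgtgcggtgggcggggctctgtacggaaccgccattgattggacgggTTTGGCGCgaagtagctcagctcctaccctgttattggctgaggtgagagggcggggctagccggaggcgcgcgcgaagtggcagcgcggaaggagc
Rfc3 promoter, chr5:151651159-151651458, minus strand: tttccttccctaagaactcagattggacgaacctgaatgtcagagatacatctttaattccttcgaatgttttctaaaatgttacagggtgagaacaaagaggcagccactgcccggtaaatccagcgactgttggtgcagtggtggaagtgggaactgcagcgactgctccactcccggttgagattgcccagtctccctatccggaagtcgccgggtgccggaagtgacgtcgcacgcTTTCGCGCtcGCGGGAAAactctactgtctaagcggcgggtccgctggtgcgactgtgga
Cdc6 promoter, chr11:98907901-98908200, plus strand: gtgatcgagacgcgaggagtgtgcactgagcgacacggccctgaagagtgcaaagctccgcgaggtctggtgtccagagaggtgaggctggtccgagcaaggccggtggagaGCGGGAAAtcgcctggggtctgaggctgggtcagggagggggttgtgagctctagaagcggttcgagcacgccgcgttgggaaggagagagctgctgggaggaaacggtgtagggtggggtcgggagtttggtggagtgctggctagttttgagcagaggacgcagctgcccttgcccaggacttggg
Pold1 promoter, chr7:44548766-44549065, minus strand: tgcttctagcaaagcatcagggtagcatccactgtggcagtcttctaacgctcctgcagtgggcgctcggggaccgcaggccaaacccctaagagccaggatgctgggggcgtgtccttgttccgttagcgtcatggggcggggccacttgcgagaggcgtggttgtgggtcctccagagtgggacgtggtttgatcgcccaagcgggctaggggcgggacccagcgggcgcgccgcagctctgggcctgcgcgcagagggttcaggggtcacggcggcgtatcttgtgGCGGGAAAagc
Orc1 promoter, chr4:108579204-108579503, plus strand: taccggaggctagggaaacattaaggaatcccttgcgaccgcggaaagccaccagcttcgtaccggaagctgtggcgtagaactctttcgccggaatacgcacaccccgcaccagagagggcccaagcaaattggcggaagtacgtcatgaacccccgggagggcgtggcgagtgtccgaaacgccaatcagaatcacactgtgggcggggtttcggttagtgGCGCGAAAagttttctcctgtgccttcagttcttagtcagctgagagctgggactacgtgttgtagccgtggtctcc
Mcm5 and Mcm6 hold the same 12 capital letters on opposite strands upstream of the start, and Mcm5 was 7.37-fold lower in treated DCs whereas Mcm6 was not called. Rfc3, with a word just before its start and another at it, was at 0 in treated DCs. Cdc6 and Pold1 were higher with treatment in both cell types, and Orc1 was lower in DCs but higher in T cells. Genes with the word were thus found among those higher and those lower. The word was present in 4 of 6 matched genes called higher and in 8 of 21 called lower in treated DCs. In treated T cells it was in 3 of 5 higher and 1 of 4 lower. Counted by gene, it was in 14 of the 35 matched members (40%) and in 2.6% of all genes. All 6 promoters shown hold the word.

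The comparison within DCs asked how treatment affected dendritic cells of the tumour. Most replication genes were lower with treatment, and the 42 measured members (at least 20 counts in either DC library) had a median log2 ratio of -1.67. The clamp loader genes Rfc3, Rfc4 and Rfc5, the helicase activator Cdc45 and the DNA polymerase alpha subunit Pola1 were the lowest beside Mcm2. A smaller group was higher, among them Pold1, the catalytic subunit of polymerase delta, Gins1, Mcm4, Mcm10 and the maintenance DNA methyltransferase Dnmt1. A gene was called when its TMM-scaled counts were at least 2-fold apart and the exact binomial 95% interval of the log2 ratio, which holds counting error only, excluded 0. By this rule 25 genes (59.5%) were lower, where 41.8% of all 10316 measured genes were lower, and 9 (21.4%) were higher, where 30.3% of all genes were higher and 72.0% were called in either direction. The median of all measured genes was -0.35. Where both libraries had 20 counts or more, 12 of 27 members were lower and 7 higher, with a median of -0.27, against 26% lower and 33.1% higher and a median of 0.21 over all genes.

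Counts of 0 were among the lower calls. Without members at 0 in either DC library, 16 of 32 were lower, where 33.1% of all genes so restricted were. The median was then -0.84, against 0.02 over those genes. Of the 31 members with at least 100 counts in PBS DCs, 5 (16.1%) had 0 counts in treated DCs, where 12% of all such genes did. In the reverse direction 1 of 24 members (4.17%) and 3.29% of all genes were at 0. In the whole set 10 members were at 0 in treated DCs and 1 in PBS DCs. Summed over the members, expression was 736 CPM in treated DCs and 1544 CPM in PBS DCs. The macrophage markers moved the same way, with 5 of 9 lower, none higher, none at 0 and a median of -1.48. Of the 6 T cell markers measured in DCs 3 were lower and 2 higher, with a median of -3.47. The part of these cell types in the result was not tested.

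The comparison within T cells asked the same of tumour T cells. There most members were within 2-fold of the PBS library. Of 42 measured members 29 were not called, with log2 ratios between -0.76 and 0.99, and the median was 0.21. The 7 higher genes were Orc1, Cdc6, Cdc45, Prim2, Pold1, Pole and Chaf1a. The 6 lower genes were Mcm10, Gins1, Prim1, Pole2, Chaf1b and Ccne2. The share called higher was 16.7%, where 18.2% of all 11058 measured genes were higher, and the share called lower was 14.3%, where 25.4% were lower (43.6% were called in either direction), with a median of -0.08 over all genes. Both shares of members are near or below those of all genes. Summed expression of the members was 3094 CPM in treated T cells and 2657 CPM in PBS T cells.

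**Figure D1:**
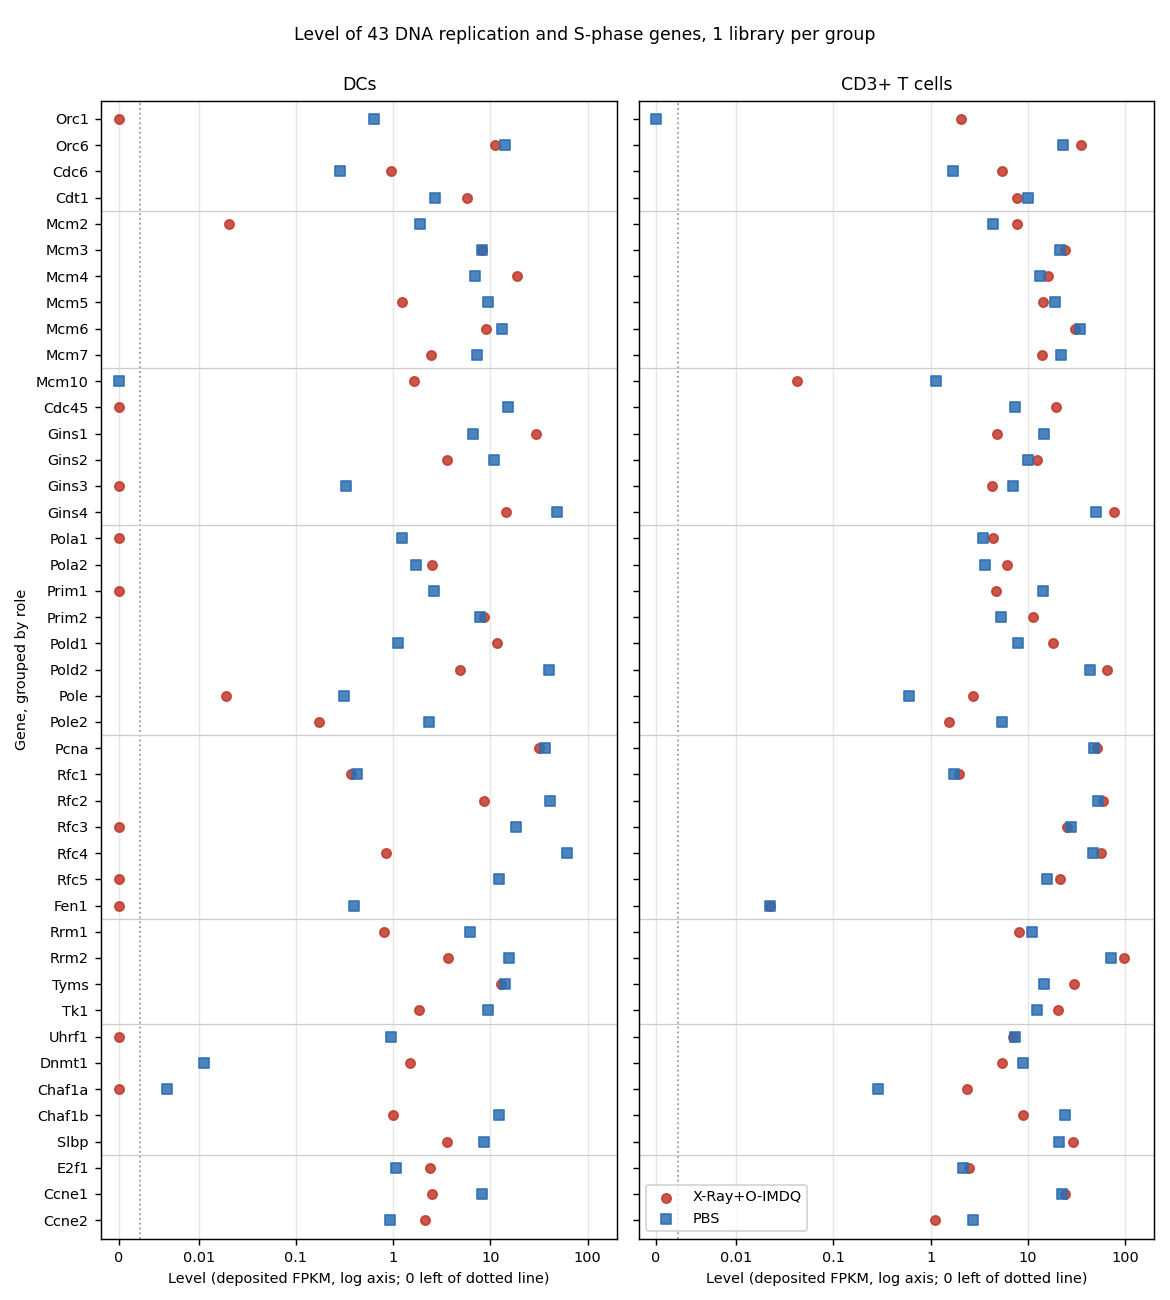
Level of each of the 43 genes in deposited FPKM (log axis, listed 0 at the left edge) in DCs and CD3+ T cells, with circles for X-Ray+O-IMDQ and squares for PBS and 1 library per point. In DCs, 10 circles sit at 0, while in T cells circle and square lie close together for most genes, with Orc1, Mcm10 and Chaf1a far apart.

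Levels are compared between genes in FPKM, the deposited unit per gene length and library total. In treated T cells the highest member was Rrm2, the regulated subunit of ribonucleotide reductase, at 97.6 FPKM, followed by the GINS subunit Gins4 at 77.2 and the polymerase delta subunit Pold2 at 65.0. In PBS T cells Rrm2 was also highest, at 71.0 FPKM, followed by Rfc2 at 53.1 and Gins4 at 50.2. In treated DCs the order was different: Pcna led at 31.5 FPKM, followed by Gins1 at 29.5 and Mcm4 at 18.9. In PBS DCs Rfc4 led at 61.3 FPKM, followed by Gins4 at 48.4 and Rfc2 at 40.7.

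The rank order of the 43 levels was alike in 3 of the libraries. Spearman's rho was 0.88 between treated and PBS T cells, 0.89 between treated T cells and PBS DCs and 0.87 between PBS T cells and PBS DCs. Against treated DCs it was 0.54 with treated T cells, 0.43 with PBS DCs and 0.51 with PBS T cells. Over all 11987 genes that reached 20 counts in any library, rho of treated DCs was 0.54, 0.66 and 0.54 in the same order, and among the other libraries it was 0.85 between treated and PBS T cells, 0.67 between treated T cells and PBS DCs and 0.69 between PBS T cells and PBS DCs. These are descriptions over genes, which share lengths and are not replicates. The treated DC library had the lowest rho with each other library over the members, and its rho with T cells was close to that over all genes.

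Of the genes that recognise and license origins, Cdc6, which loads the MCM ring together with Cdt1, was higher in both treated libraries. Cdc6 had 69 counts in treated DCs and 35 in PBS DCs, with a log2 ratio of 1.81 (interval 1.20 to 2.44), and 528 counts in treated T cells and 167 in PBS T cells, with a ratio of 1.64 (1.39 to 1.90). Cdt1, the licensing factor destroyed in S phase, had 251 counts in treated DCs and 201 in PBS DCs, a 2.22-fold higher scaled level, and 452 counts in treated T cells and 589 in PBS T cells, which was not called. Orc1, the largest subunit of the origin recognition complex (ENSMUSG00000028587, chromosome 4, 108436620 to 108472030, GRCm39), went opposite ways. It had 0 counts in treated DCs and 53 in PBS DCs, at least 7.81-fold lower. In T cells it had 131 counts in treated and 0 in PBS T cells, at least 34.6-fold higher. Orc6, the smallest subunit of that complex, was not called in either cell type: it had 384 counts in treated DCs and 821 in PBS DCs, and 1615 in treated T cells and 1068 in PBS T cells.

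The Mcm2 to Mcm7 genes encode the ring of the replicative helicase, whose subunits act in equal numbers. In T cells none of the 6 was called, and their log2 ratios ran from -0.68 for Mcm7 to 0.78 for Mcm2. Mcm6 was the highest of them, at 30.7 FPKM in treated T cells and 34.7 FPKM in PBS T cells. In DCs the subunits parted. Mcm2 had 2 counts in treated DCs and 311 in PBS DCs, so its log2 ratio of -6.45 was imprecise (interval -9.50 to -4.59). Mcm5 had 69 counts in treated DCs and 903 in PBS DCs (ratio -2.88, interval -3.26 to -2.53), and Mcm7 had 151 in treated DCs and 774 in PBS DCs, 2.89-fold lower. Mcm4 was the exception, with 953 counts in treated DCs and 594 in PBS DCs, 2.85-fold higher. Mcm3 and Mcm6, with log2 ratios of 0.09 and -0.49, were not called. The highest subunit exceeded the lowest by 923.5-fold in FPKM in treated DCs, against 7.06-fold in PBS DCs, 3.95-fold in treated T cells and 7.84-fold in PBS T cells. Mcm2 was the lowest in all 4 libraries. The span in treated DCs rests on its 2 counts and is imprecise, and the next lowest there, Mcm5, had 1.23 FPKM.

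All 6 genes that activate the helicase were called in DCs, where 72.0% of all genes were called in either direction. Cdc45 joins the MCM ring and GINS in the moving helicase (ENSMUSG00000000028, chromosome 16, 18599197 to 18630737, GRCm39). Cdc45 had 0 counts in treated DCs and 1268 in PBS DCs, at least 193-fold lower. In T cells it went the other way, with 1272 counts in treated T cells and 477 in PBS T cells, a log2 ratio of 1.40 (interval 1.25 to 1.55). Mcm10, a scaffold that is needed to fire origins and is not part of the MCM ring, showed the reverse pattern. It had 178 counts in treated DCs and 0 in PBS DCs, at least 84.8-fold higher. In T cells it had 6 counts in treated and 162 in PBS T cells, a ratio of -4.77 (-6.24 to -3.62).

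The 4 GINS subunits form 1 complex, yet moved apart in DCs. Gins1 had 629 counts in treated DCs and 240 in PBS DCs, 4.65-fold higher, and 134 counts in treated T cells and 418 in PBS T cells, a ratio of -1.66 (-1.95 to -1.37). Gins2 had 204 counts in treated DCs and 1071 in PBS DCs, 2.96-fold lower, and Gins4 had 271 in treated DCs and 1554 in PBS DCs, 3.23-fold lower. Gins3 was sparse in DCs, with 0 counts in treated and 21 in PBS DCs, at least 2.93-fold lower. Gins2, Gins3 and Gins4 were not called in T cells, where their log2 ratios were 0.28, -0.76 and 0.59.

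Among the polymerase genes, Pold1 stood out as higher in both cell types. It had 798 counts in treated DCs and 129 in PBS DCs, a log2 ratio of 3.46 (3.19 to 3.74), and 1628 counts in treated T cells and 723 in PBS T cells, a ratio of 1.15 (1.03 to 1.28). Its partner Pold2, a regulatory subunit of polymerase delta, had 131 counts in treated DCs and 1801 in PBS DCs, 7.74-fold lower, and 2277 counts in treated T cells and 1530 in PBS T cells, not called. Both polymerase epsilon genes among the members were lower in DCs. Pole, the catalytic subunit, had 3 counts in treated DCs and 83 in PBS DCs (log2 ratio -3.96, interval -6.27 to -2.36) but 559 counts in treated T cells and 125 in PBS T cells, 4.42-fold higher. Pole2, an accessory subunit, had 7 counts in treated DCs and 160 in PBS DCs, 12.9-fold lower, and 82 counts in treated T cells and 292 in PBS T cells, 3.60-fold lower. The catalytic and accessory genes of polymerase epsilon thus differed in direction in T cells.

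Polymerase alpha-primase, which lays the RNA-DNA primers, split in a like manner. Pola1, the catalytic subunit, had 0 counts in treated DCs and 261 in PBS DCs, at least 39.6-fold lower. Pola1 was not called in T cells, with 715 counts in treated and 568 in PBS T cells. Prim1, the catalytic primase subunit, had 0 counts in treated DCs and 241 in PBS DCs, at least 36.5-fold lower. Prim1 had 336 counts in treated T cells and 1042 in PBS T cells, 3.14-fold lower. Prim2, the large primase subunit, was steady in DCs with 718 counts in treated and 1106 in PBS DCs (log2 ratio 0.21) and had 1239 counts in treated T cells and 584 in PBS T cells, 2.10-fold higher. Pola2, the regulatory subunit of polymerase alpha, had log2 ratios of 0.61 in DCs and 0.70 in T cells and was not called in either.

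Pcna, the sliding clamp (ENSMUSG00000027342, chromosome 2, 132091082 to 132095234, GRCm39), was among the steadiest members. It had 1064 counts in treated DCs and 2079 in PBS DCs, a log2 ratio of -0.14 (-0.25 to -0.03), and 2275 counts in treated T cells and 2161 in PBS T cells, a ratio of 0.06 (-0.03 to 0.14). The genes of the RFC complex, which opens the clamp and loads it, were steady in T cells as well, with log2 ratios from -0.19 for Rfc3 to 0.43 for Rfc5. In DCs 4 of the 5 were lower, where 41.8% of all genes were. Rfc3 had 0 counts in treated DCs and 1558 in PBS DCs, at least 237.6-fold lower. Rfc5 had 0 in treated DCs and 1351 in PBS DCs, at least 206-fold lower. Rfc4 had 18 counts in treated DCs and 2236 in PBS DCs, 69.9-fold lower.

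Rfc2 had 765 counts in treated DCs and 6103 in PBS DCs, 4.49-fold lower. Its listed span overlaps that of Lat2 on the opposite strand by 1784 bases, and Lat2 had 0 counts in treated DCs and 3228 in PBS DCs. Rfc1, the large RFC subunit, was low everywhere, between 0.37 FPKM in treated DCs and 1.96 FPKM in treated T cells, and was not called. Fen1, the nuclease that trims Okazaki fragments, had 0 counts in treated DCs, 23 in PBS DCs, 1 in treated T cells and 1 in PBS T cells, so it was not measured in T cells. It overlaps the much more abundant Tmem258 on the opposite strand by 156 bases. In all, 12 members, among them Cdc45, Rfc4, Rfc5, Pole2, Tk1 and Ccne2, overlap another listed gene, and whether counting used the strand is not stated in the labels or tables. Of the 11 overlapping members measured in DCs 9 were lower and 1 was higher, against 16 lower and 8 higher of the 31 that overlap none. Of all measured genes 41.8% were lower and 30.3% higher. Gm49384, which overlaps Pole2, had 0 counts in each library. Whether overlap affected the calls was not tested.

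The nucleotide supply genes were lower in treated DCs with 1 exception, where 41.8% of all genes were lower. Rrm1, the large subunit of ribonucleotide reductase, had 124 counts in treated DCs and 1600 in PBS DCs, 7.27-fold lower. Rrm2 (ENSMUSG00000020649, chromosome 12, 24758240 to 24764145, GRCm39) had 142 counts in treated DCs and 1012 in PBS DCs, 4.01-fold lower, and Tk1, the salvage enzyme thymidine kinase, had 135 in treated DCs and 1169 in PBS DCs, 4.88-fold lower. Tyms, thymidylate synthase, was the exception with 1111 counts in treated DCs and 2031 in PBS DCs, a log2 ratio of -0.04 (-0.15 to 0.06). In T cells none of the 4 was called, although Tyms came close with 3318 counts in treated and 1656 in PBS T cells, a ratio of 0.99 (0.90 to 1.07). The log2 ratios in T cells were -0.45 for Rrm1, 0.43 for Rrm2 and 0.66 for Tk1.

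Of the genes that copy chromatin and its marks, 3 were lower and 1 higher in treated DCs, where 41.8% and 30.3% of all genes were. Dnmt1 had 154 counts in treated DCs and 2 in PBS DCs (log2 ratio 7.10, interval 5.22 to 10.2), but 733 counts in treated T cells and 1225 in PBS T cells, not called. Its recruiter Uhrf1, which reads hemimethylated DNA, had 0 counts in treated DCs and 96 in PBS DCs, at least 14.4-fold lower. Uhrf1 had 549 counts in treated T cells and 590 in PBS T cells. The methylase and its recruiter therefore lay on opposite sides in DCs, and Dnmt1 was near the counting floor in PBS DCs.

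The chromatin assembly factor genes differed within T cells. Chaf1a, the large subunit, had 384 counts in treated T cells and 48 in PBS T cells, a log2 ratio of 2.98 (2.55 to 3.45), and 0 and 1 counts in treated and PBS DCs, too few to measure. Chaf1b, the middle subunit, had 775 counts in treated T cells and 2082 in PBS T cells, 2.72-fold lower, and 65 in treated DCs and 1350 in PBS DCs, 11.7-fold lower. Slbp, which binds the stem-loop of histone messenger RNA, had 305 counts in treated DCs and 1239 in PBS DCs, 2.29-fold lower, and 3273 in treated T cells and 2368 in PBS T cells, not called.

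The 3 genes of G1/S control were all called in DCs, where 72.0% of all genes were called in either direction. Ccne1 was the highest of the 3 in FPKM in each library. E2f1, an activator of the set, had 107 counts in treated DCs and 80 in PBS DCs, 2.38-fold higher, and 145 in treated T cells and 126 in PBS T cells, not called. Ccne1, a cyclin that drives S phase entry with Cdk2, had 93 counts in treated DCs and 515 in PBS DCs, 3.12-fold lower, and 1181 in treated T cells and 1109 in PBS T cells, not called. Its close relative Ccne2 had 104 counts in treated DCs and 77 in PBS DCs, 2.40-fold higher, and 72 counts in treated T cells and 178 in PBS T cells, 2.50-fold lower. The 2 cyclin E genes thus lay on opposite sides in DCs.

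**Figure D2:**
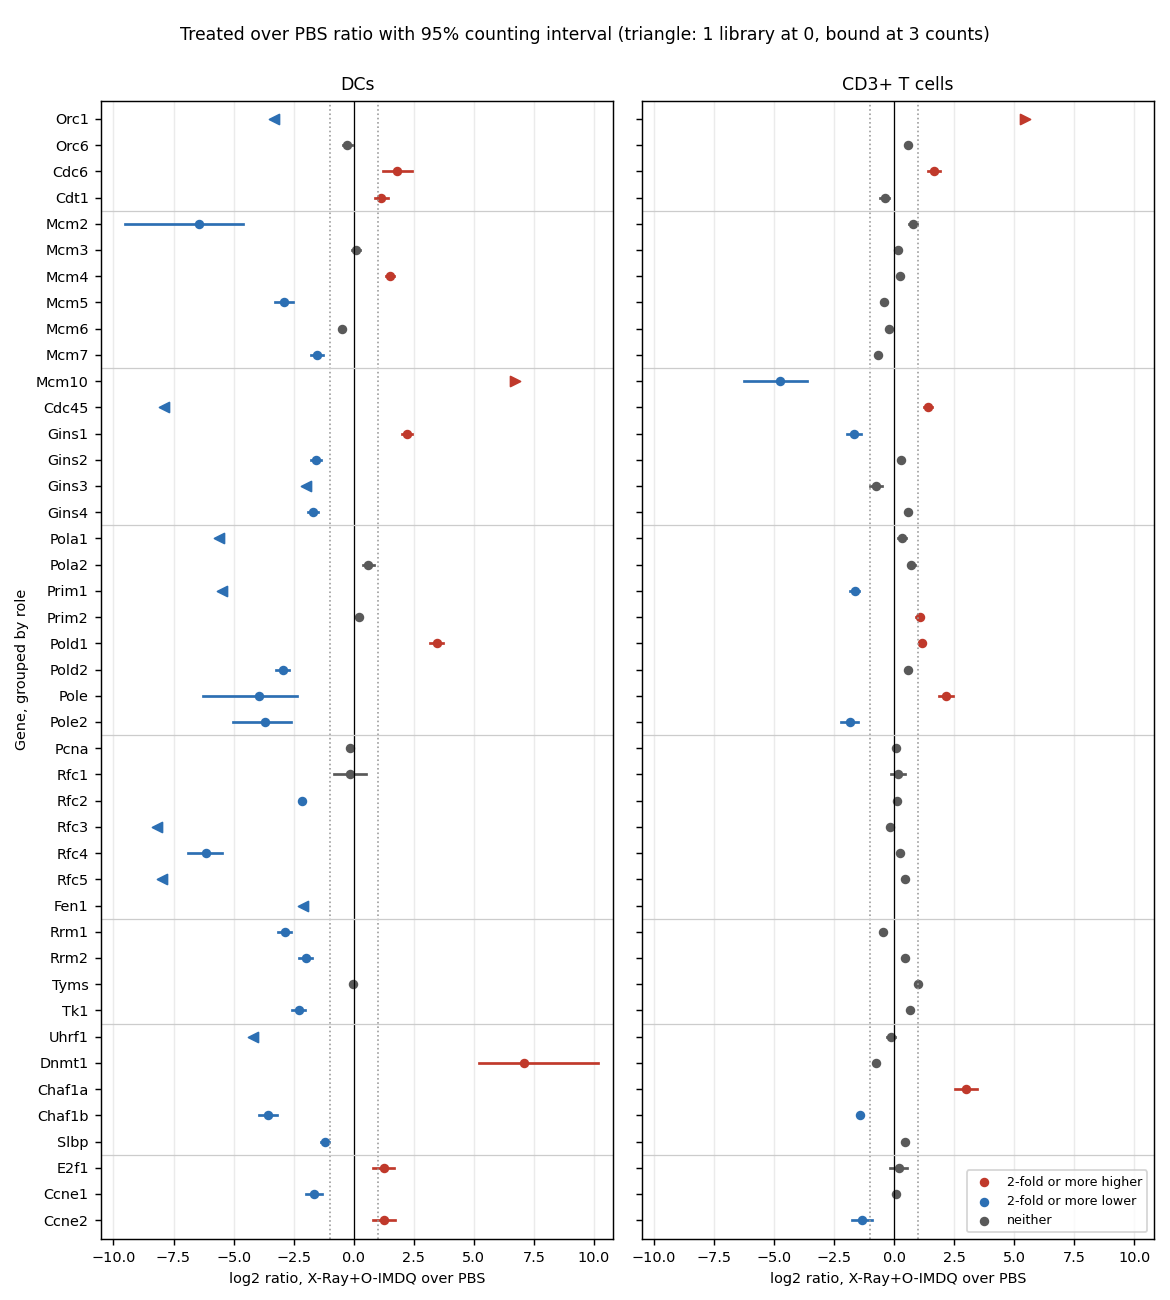
Log2 ratio of X-Ray+O-IMDQ over PBS for each measured gene in DCs and CD3+ T cells, with horizontal lines for the 95% counting interval and triangles where 1 library is at 0 and the value is a bound at 3 counts. In DCs 25 genes lie 2-fold or more to the left and 9 to the right, while in T cells 29 of 42 lie between the dotted 2-fold lines.

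The DC and T cell comparisons share no library, so their ratios can be set side by side. Of 41 members measured in both, 17 (41.5%) had ratios of the same sign, against 48.1% of 9388 genes measured in both. Cdc6 and Pold1 were higher in both cell types, and Prim1, Pole2 and Chaf1b were lower in both. Orc1, Cdc45 and Pole were lower in treated DCs and higher in treated T cells, and Mcm10, Gins1 and Ccne2 were higher in DCs and lower in T cells. Over all genes 72.0% were called in DCs and 43.6% in T cells, and the share called in opposite directions was not computed. A further 7 members were called in neither: Orc6, Mcm3, Mcm6, Pola2, Pcna, Rfc1 and Tyms. Pearson's r was -0.28 and Spearman's rho -0.10 over the 41 members, and 0.00 and -0.02 over all genes, as descriptions.

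**Figure D3:**
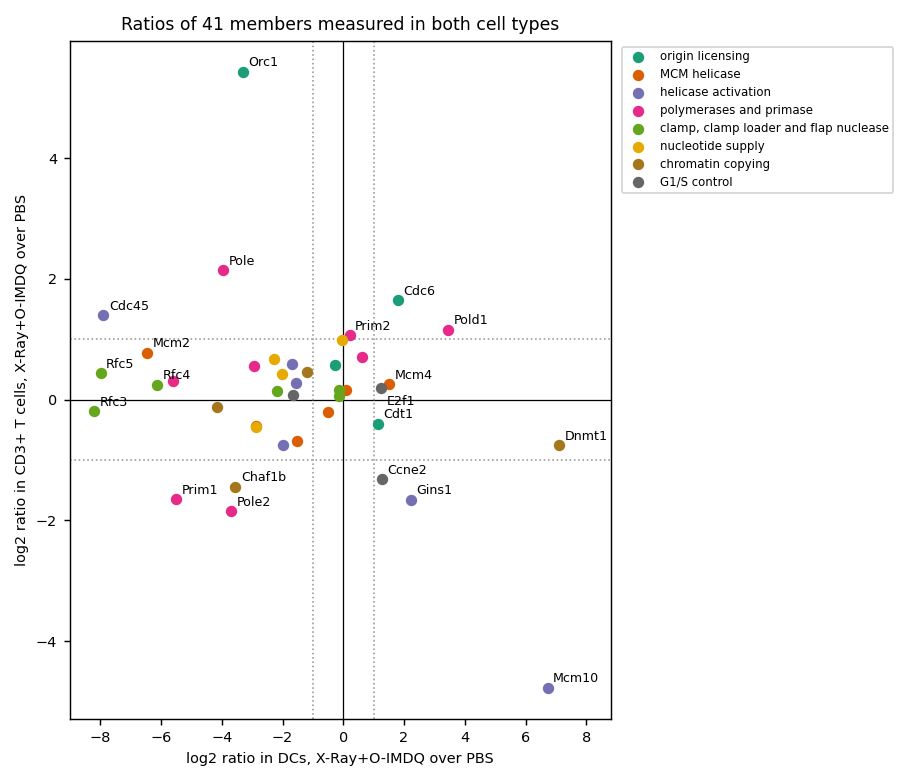
Log2 ratio of X-Ray+O-IMDQ over PBS in DCs (horizontal) and CD3+ T cells (vertical) for 41 genes measured in both, 1 point per gene, coloured by role, with genes at 0 in 1 library placed at their 3-count bound and dotted lines at 2-fold. Most points lie left of 0 in DCs and within 2-fold in T cells, and 6 genes lie beyond 2-fold in opposite directions.

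The order of T cells and DCs was read from the same libraries. With PBS the median level was 10.9 FPKM in T cells and 6.95 FPKM in DCs, and 37 of 43 members had the higher FPKM in T cells. With treatment it was 11.3 FPKM in T cells and 1.85 FPKM in DCs, with 39 of 43 members higher in T cells. FPKM is scaled to library total, and by total counts the median log2 ratio over all genes was 0.70 with PBS and 1.07 with treatment. The share of all genes with the higher FPKM in T cells was not computed. On TMM-scaled counts 13 members were called higher in PBS T cells and 4 lower than in PBS DCs, where 34.6% and 25.7% of all genes were, and 60.3% in either direction. Scaling by total counts, which moved the median of all genes from 0.16 to 0.70, gave 23 higher and 3 lower. Of all genes 43.8% and 19.1% were called so by total counts. In the treated libraries 30 of 42 members were called higher in T cells and 3 lower, where 43.3% and 31.1% of all genes were and 74.5% in either direction, and Mcm10, Gins1 and Ccne2 were the 3 lower. The cell types were counted in separate tables, and no library served as a replicate.

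Other genes of the pathway were read in 3 lists. Of 46 measured replication factors outside the member set, 17 were higher and 14 lower in treated DCs (median log2 ratio 0.22), and of 47 in treated T cells 9 were higher and 9 lower (median 0.17). These are 37.0% higher and 30.4% lower in DCs, where 30.3% and 41.8% of all genes were, and 19.1% each way in T cells, near the 18.2% and 25.4% of all genes. The list did not share the low median of the members in DCs. Rrm2b, the p53-induced reductase subunit, had 279 counts in treated DCs and 1 in PBS DCs, a ratio of 8.95 (6.46 to 14.3). Asf1b, a histone chaperone, had 1 count in treated DCs and 1546 in PBS DCs, a ratio of -9.77 (-15.1 to -7.29), and Ticrr, which helps load Cdc45, had 1 count in treated DCs and 406 in PBS DCs, a ratio of -7.84 (-13.1 to -5.35). The origin recognition gene Orc3 had 3 counts in treated DCs and 550 in PBS DCs, a ratio of -6.69, and Dctd, a deaminase of the thymidylate route, one of 5.50.

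In T cells the origin recognition genes of that list parted. Orc2 had 214 counts in treated T cells and 36 in PBS T cells, 5.88-fold higher, and Orc3 had 1014 in treated and 277 in PBS T cells, 3.62-fold higher. Orc5 had 72 counts in treated T cells and 499 in PBS T cells, 7.01-fold lower, and Orc4 had 287 in treated and 896 in PBS T cells, 3.16-fold lower. With Orc1 higher and Orc6 not called, subunits of the origin recognition complex thus lay on both sides of 0. Clspn, a checkpoint mediator at the fork, was 4.15-fold higher, and Casp8ap2, which takes part in histone gene expression, had a log2 ratio of -3.35.

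Regulators of the G1/S step were mostly lower in treated DCs, where 16 of 25 measured genes (64%) were lower and 3 (12%) higher (median -1.66, beside -0.35 for all genes). The transcription factor genes Tfdp2, E2f5 and Lin9 were the lowest, with 1, 0 and 4 counts in treated DCs and 297, 268 and 300 counts in PBS DCs. Cdkn1b, an inhibitor of cyclin E-Cdk2, was 8.35-fold higher in treated DCs, the pocket protein gene Rbl2 8.09-fold and the D-type cyclin Ccnd2 3.16-fold higher. In T cells 4 of 31 were higher and 8 lower (median -0.07), or 12.9% and 25.8%, near the shares of all genes. Mybl2, an E2F target that drives later cell cycle genes, had 441 counts in treated T cells and 9 in PBS T cells, a ratio of 5.60 (4.66 to 6.74). Rbl1, a relative of Rb1, was 4.01-fold higher, and the p53 target Cdkn1a, which inhibits cyclin-dependent kinases, was 6.13-fold higher. In DCs Cdkn1a went the other way, with 6152 counts in treated DCs and 26427 in PBS DCs, 2.42-fold lower. Rb1 itself had 0 counts in treated T cells and 205 in PBS T cells, at least 55.7-fold lower. Tfdp1 and Cdc25a had log2 ratios of -1.68 and -1.58 in T cells.

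G2/M markers, the genes of the step after replication, had a median of -0.06 in DCs, where 5 of 19 (26.3%) were higher and 8 (42.1%) lower, near the 30.3% and 41.8% of all genes. Kif11, Cenpf and Tpx2, which build or bind the spindle and kinetochore, were 5.64-fold, 4.96-fold and 4.67-fold higher in treated DCs. Aurkb, Ccnb1 and Plk1 had 0 counts in treated DCs and 638, 505 and 372 counts in PBS DCs. In T cells 7 of 20 G2/M markers (35%) were higher and 1 (5%) was lower (median 0.68), where 18.2% and 25.4% of all genes were. Tpx2, Aurka and Nusap1 were 8.45-fold, 5.64-fold and 4.19-fold higher in treated T cells. Kif20a, with 0 counts in treated T cells and 272 in PBS T cells, was at least 74.1-fold lower. The difference between the members and these lists was not tested.

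**Figure D4:**
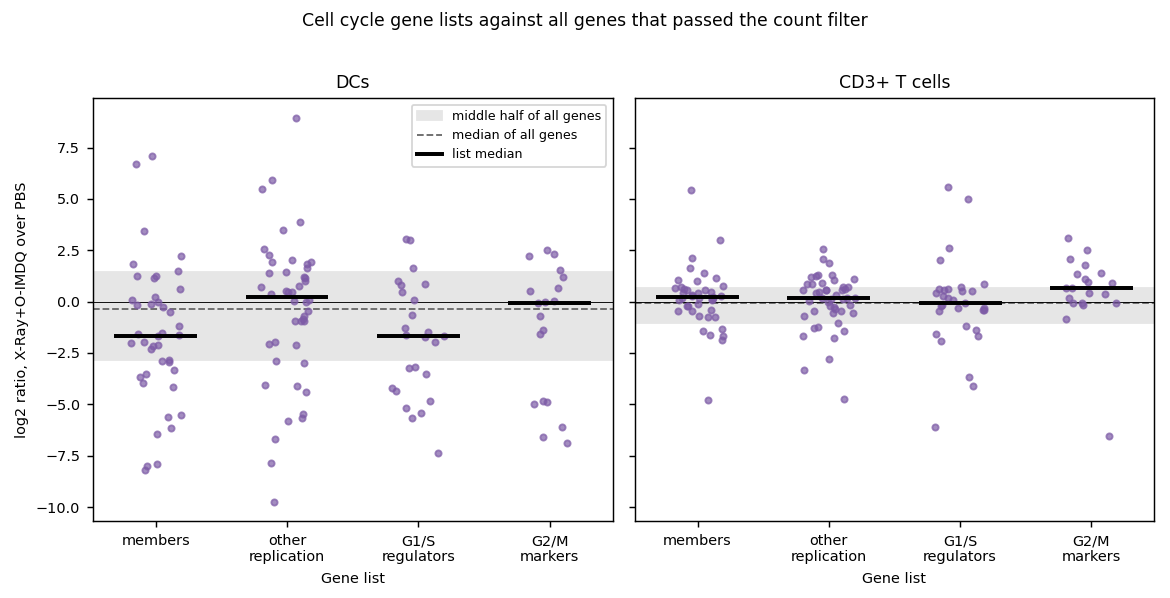
Log2 ratio of X-Ray+O-IMDQ over PBS for the members and 3 other cell cycle lists in DCs and CD3+ T cells, 1 point per measured gene, with a black bar at each list median, a dashed line at the median of all genes and a grey band between their quartiles. In DCs the members and the G1/S regulators have medians of -1.67 and -1.66, while in T cells the G2/M markers have the highest median, at 0.68.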

How the data were processed

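RNA of tumour DCs and CD3+ T cells was sequenced, 1 library per group, by BGI per the labels' protocols. Per the submitters' processing notes, the genome build was GRCm39 and the tools named, with no step given, were RSEM 1.2.12, HISAT2 2.0.4, R 3.3.1 and DESeq2 1.24.0. The deposited tables hold raw read counts per gene, and FPKM that the authors scaled to listed length and counted reads. FPKM recomputed from counts matched within a relative difference of 2.04e-07. Columns were assigned through the read file names in the sample descriptions, whose numbers differ from the titles for 3 of 4 samples; the 4 further columns of per-sample values match no description and were not used. As those columns carry the number in the PBS titles, the choice of PBS library is in doubt.

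Counts were scaled with TMM (edgeR 4.0.16, R 4.3.3) over the 2 libraries compared. Log2 ratios have exact conditional binomial (Clopper-Pearson) 95% intervals (scipy 1.17.1), which hold counting error alone, as PCR copies without identifiers are no independent molecules. A gene was measured with a symbol and at least 20 counts in either library. For a library at 0 the log2 ratio was computed at 3 counts and is a bound in that sense only. Folds given as "at least" are the limit of the exact interval. That limit is smaller, for Rfc3 in DCs 237.6-fold in place of 292-fold. On simulated data, genes 4-fold and 8-fold apart were called in 100% of cases, and unchanged genes in 0.142% for DCs and 0.133% for T cells; these data held counting error only.

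Members and lists were chosen with earlier results of these data known. Named by rule were every member called in DCs or T cells, the 2 members of highest mean FPKM per role, and the 3 genes furthest apart in each direction per list among those reaching 100 counts in 1 library; 1 gene that meets this rule is not reported here. Alternatives, whose effects are given further on, were total counts, DESeq2 1.42.0 size factors, upper-quartile scaling, count minimums of 1 and 100 and of 20 in both libraries, 1.5-fold and 4-fold thresholds, log2(CPM + 1) and a lowess correction for listed gene length. Leaving out members at 0 was chosen after seeing the data.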

Additional observations from a re-analysis of the deposited data

Results flagged for a closer look

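For 6 genes the treated over PBS ratio was called in opposite directions in the 2 cell types. The difference was not tested, since each ratio rests on 1 library per group. Over all genes, 30.3% were higher and 41.8% lower in treated DCs, and 18.2% and 25.4% in treated T cells. The share of all genes with opposite calls was not computed, so the 6 are not read as a feature of the members. Log2 ratios were -3.31 in DCs and 5.43 in T cells for Orc1, 6.72 and -4.77 for Mcm10, and -7.89 and 1.40 for Cdc45. They were 2.22 in DCs and -1.66 in T cells for Gins1, -3.96 and 2.14 for Pole, and 1.26 and -1.32 for Ccne2. Orc1, Mcm10 and Cdc45 had a library at 0, so those ratios are bounds at 3 counts: Orc1 in both cell types, and Mcm10 and Cdc45 in DCs.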

How the results depend on the processing

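No paired analysis was possible because each group has 1 library and no result comes from a test with a p-value. Leaving out a replicate was likewise not possible. Scaling by DESeq2 size factors or upper quartiles moved no count of called members by over 1.5 times. Total counts did so only for members higher in PBS T cells than in PBS DCs, 23 in place of 13. The share of all genes was 43.8% in place of 34.6%. Over all genes, total counts also moved the median of treated T cells over treated DCs from 0.42 to 1.07. In DCs, treated over PBS, the members called lower numbered 12 in place of 25 when both libraries needed 20 counts, and 16 without members at 0. The DC median, -1.67, was -1.56 at 100 counts, -0.27 when both needed 20 counts and -1.48 with log2(CPM + 1). It was -1.06 after the length correction and -0.84 without members at 0, where a shift over 0.1 counted as moved. The medians of all genes, in that order, were -0.21, 0.21, -0.33, -0.11 and 0.02, beside -0.35 as reported. The median of the members kept its sign in these. At 4-fold, members higher in DCs numbered 4 in place of 9, against 18.7% in place of 30.3% of all genes. In T cells, treated over PBS, 12 were higher at 1.5-fold and 3 at 4-fold in place of 7, and 1 was lower at 4-fold in place of 6. Of all genes, 27.0% and 9.06% were higher at these thresholds, and 16.1% were lower at 4-fold. In PBS T cells over PBS DCs, 21 were higher at 1.5-fold and 7 at 4-fold in place of 13. Lower were 2 in place of 4 at 100 counts, with 20 in both libraries and at 4-fold. Of all genes, 41.3% were higher at 1.5-fold and 23.2% at 4-fold. Those lower were 25.3%, 23.1% and 15.5% in the order given. In treated T cells over treated DCs, 17 of 28 members were higher with 20 counts in both libraries, in place of 30 of 42. Of all genes 26.6% were, in place of 43.3%. At 1.5-fold and after the length correction 5 in place of 3 were lower, where 36.3% and 34.3% of all genes were. The cause of these shifts was not tested. Counts of 3 or fewer limit the precision for Fen1 in T cells, Chaf1a in DCs, Mcm2 and Pole in treated DCs and Dnmt1 in PBS DCs. Counts of 0 do so for Orc1, Cdc45, Gins3, Pola1, Prim1, Rfc3, Rfc5, Fen1 and Uhrf1 in treated DCs. They also do so for Mcm10 in PBS DCs and Orc1 in PBS T cells.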
